A study of Mus musculus with 30 samples.

Results

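The fibroblast growth factor (FGF) genes described here are 4 ligands (Fgf4, Fgf5, Fgf8 and Fgf15), 2 receptors (Fgfr1 and Fgfr2) and 4 genes that the pathway switches on in its target cells (Dusp6, Spry2, Spry4 and Etv4). They were taken as a named list, without a threshold on any measured value, but the list was chosen with earlier results of these data known. These 10 genes are 10 of the 29555 gene identifiers in each of 2 RNA tables. All 10 passed the filter on low counts in every comparison of transcripts. Their loci hold 73 of the 158917 peaks of accessible chromatin in the first peak table and 76 of the 181059 in the second, counting each peak in a gene or within 10 kb of either end.

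The study measured transcripts by RNA-seq and open chromatin by ATAC-seq in mouse epiblast stem cells (EpiSCs), pluripotent cells that resemble the late epiblast, and in definitive endoderm (DE) derived from them. Of the 30 samples, 19 were RNA and 11 were ATAC. EpiSCs of all strains grew on feeder cells in a medium based on N2B27 that contained Fgf2, Activin A and NVP-TNKS656, a Wnt inhibitor, and their treatment is labelled none. DE was made in a chemically defined medium, first with CHIR99201 (spelled as in the labels) and Activin A for 16 h and afterwards with Activin A and LDN193189 for 24 h, although a time of 46 h is labelled as well. No FGF is named in the endoderm steps. By the labels, the 2 cell states thus differ in added Fgf2, the Wnt inhibitor, CHIR99201 and LDN193189 as well as in identity. CXCR4+ DE cells were taken by magnetic sorting, and EpiSCs at passage 5 to 10 were lifted with collagenase to limit carry-over of feeders.

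The RNA groups were C57BL/6 (B6) EpiSCs with 5 libraries (replicates 1, 2, 4, 44 and 51), B6 DE with 4 (2, 4, 44 and 51), PWK/PhJ (PWK) EpiSCs with 3 (BioRep695, BioRep698 and 1 unmatched), B6.129 F1 EpiSCs with 3 (4, 9 and 1 unmatched) and DBA/2J (DBA) EpiSCs with 1. The ATAC groups were B6 EpiSCs with 4 libraries (1, 4, 44 and 51), B6 DE with 4 (2, 4, 44 and 51), PWK EpiSCs with 2 (BioRep698 and 1 unmatched) and DBA EpiSCs with 1. The libraries called unmatched were placed by strain alone, because their column names give the strain but match no replicate in the labels. PWK was bred from wild mice, B6 and DBA are classical inbred strains, and the F1 cells carry B6 and 129 genomes. The study also has 3 PWK DE samples, not analysed here. The titles call the B6, PWK and B6.129 F1 replicates BioRep, but the labels do not say whether these are separate cultures or lines. The p-values therefore measure the spread between these libraries, which may be that of cultures of 1 line.

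FGF ligands bind receptor tyrosine kinases together with heparan sulfate, and the receptors signal through FRS2, GRB2 and SOS to RAS and the ERK kinases. ERK activity induces ETS factors of the ETV group and a set of inhibitors, among them Sprouty proteins and the ERK phosphatase DUSP6, which restrain the same cascade. In the mouse embryo Fgf4 and Fgf8 are made in the epiblast and primitive streak, Fgf5 marks the epiblast after implantation, and cultured EpiSCs depend on FGF and Activin.

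For 5 of the 10 genes (Fgf4, Fgf5, Fgfr2, Dusp6 and Spry2) a RefSeq promoter sequence of build GRCm38.p6 was matched. The stretches below are those bases upstream of the start site that also lie inside an ATAC peak at the start site, and they are shown so that the peaks over these promoters can be set beside the transcripts. Each is written 5′ to 3′ on the strand of its gene, and capitals mark a match to a motif. The Fgf4 stretch is chr7:144861136-144861251 on the plus strand, the Fgf5 stretch chr5:98254012-98254183 on the plus strand, the Dusp6 stretch chr10:99262981-99263230 on the plus strand and the Spry2 stretch chr14:105897022-105897069 on the minus strand.
Fgf4: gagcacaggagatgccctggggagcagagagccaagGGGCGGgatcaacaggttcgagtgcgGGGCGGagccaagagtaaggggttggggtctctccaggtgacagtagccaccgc
Fgf5: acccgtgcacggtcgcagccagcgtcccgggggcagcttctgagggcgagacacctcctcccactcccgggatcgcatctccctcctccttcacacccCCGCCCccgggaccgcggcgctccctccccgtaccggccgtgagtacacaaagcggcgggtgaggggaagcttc
Dusp6: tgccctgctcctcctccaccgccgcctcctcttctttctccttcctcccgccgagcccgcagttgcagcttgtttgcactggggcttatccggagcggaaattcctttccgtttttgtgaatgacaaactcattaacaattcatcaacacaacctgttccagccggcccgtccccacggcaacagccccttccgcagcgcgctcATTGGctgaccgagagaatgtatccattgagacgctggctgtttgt
Spry2: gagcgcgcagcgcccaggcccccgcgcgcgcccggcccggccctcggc

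These promoters were searched on both strands, in the 250 bases upstream of the start site, for 11 motifs, and the share of 32851 promoter windows of the same length that hold each motif is given with its letters. They were the GC box GGGCGG (32.7%), the CCAAT box CCAAT (33.8%), the TATA box TATAAA (12.4%), the ETS core CCGGAA (12%), the TCF/LEF core CTTTGAT (3.21%), the octamer core ATGCAAA (4.12%), the FOX core GTAAACA (3.17%), the GATA core AGATAA (9.99%), the E-box CACGTG (6.02%), the CRE core TGACGTC (2.78%) and the AP-1 core TGACTCA (4.46%). The Fgf4 window held 2 GC boxes, whose first bases lie 214 and 188 bases upstream, and 1 CCAAT box 106 bases upstream, outside the stretch shown. The Fgf5 window held 1 GC box, written CCGCCC on the strand shown and 74 bases upstream, and 1 ETS core 241 bases upstream, outside the stretch shown. The Dusp6 window held 1 CCAAT box, written ATTGG on the strand shown and 46 bases upstream. No match overlapped another, and the windows of Spry2 and Fgfr2 held none of the 11.

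Total counts per RNA library ran from 24529054 to 29947841 in EpiSCs and from 22829536 to 66563933 in DE, and total counts per ATAC library from 3751526 to 9571127. No 2 libraries of a group were alike within counting error, since the smallest chi-square per feature was 9.71 over 22 RNA pairs and 2.77 over 19 ATAC pairs. As a check of the labels, 12 markers of definitive endoderm summed to 7448 to 14514 CPM (read counts relative to TMM-scaled library size) in DE and 216 to 629 in EpiSCs. Of these, 10 were higher in DE, and Cldn6 and Epcam were not called. Cer1 alone had 6469 CPM on average in DE and 80.9 in EpiSCs. Epcam was scarce in both states, with at most 0.9 CPM in the CXCR4+ cells and 2.08 CPM on average in EpiSCs. Feeder fibroblast markers, 15 genes in all, summed to 79.8 to 291 CPM in DE and 81.9 to 3074 in B6 EpiSCs, with 12 lower and 0 higher in DE. Of 8 markers of neuroectoderm, 6 were tested, and 4 were lower and 1 higher in DE, with sums of 22.1 to 32.3 CPM in DE and 399 to 890 in EpiSCs. Streak and mesoderm markers were mixed, with 2 higher (Mixl1 and Pdgfra) and 3 lower of 7 tested. Their sums were 162 to 287 CPM in DE and 155 to 596 in EpiSCs. Visceral endoderm markers had 2 higher (Apoa1 and Amn) and 1 lower of 6 tested, with sums of 10 to 21.7 and 11.8 to 19.5 CPM. DE replicate 2 held 37.8 CPM of Pou5f1, a pluripotency factor, against 2.46 to 6.34 in the other DE libraries, and its feeder sum of 291 CPM was the highest of DE.

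The first comparison asked how the FGF genes differ between B6 EpiSCs and the DE made from them. Of the 4 ligands, Fgf5 and Fgf8 rose in DE, Fgf4 fell to or near 0, and Fgf15 was not called. The receptors moved in opposite directions, with Fgfr1 lower and Fgfr2 higher in DE. All 4 induced genes, Dusp6, Spry2, Spry4 and Etv4, were lower. By the quasi-likelihood test of edgeR, with Benjamini-Hochberg adjustment and a threshold of 0.05, 3 members were higher, 6 were lower and 1 was not called, and for 9 no DE library reached into the EpiSC range. Calls were common among all genes too, since 62% of the 14085 genes tested were called, 31.5% higher and 30.6% lower, and 55.6% did not overlap. The median log2 change was -1.20 over the 10 members and -0.01 over all genes tested. In bulk samples, fewer cells of a type and less RNA per cell cannot be told apart, and that holds for every level below.

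**Figure D1:**
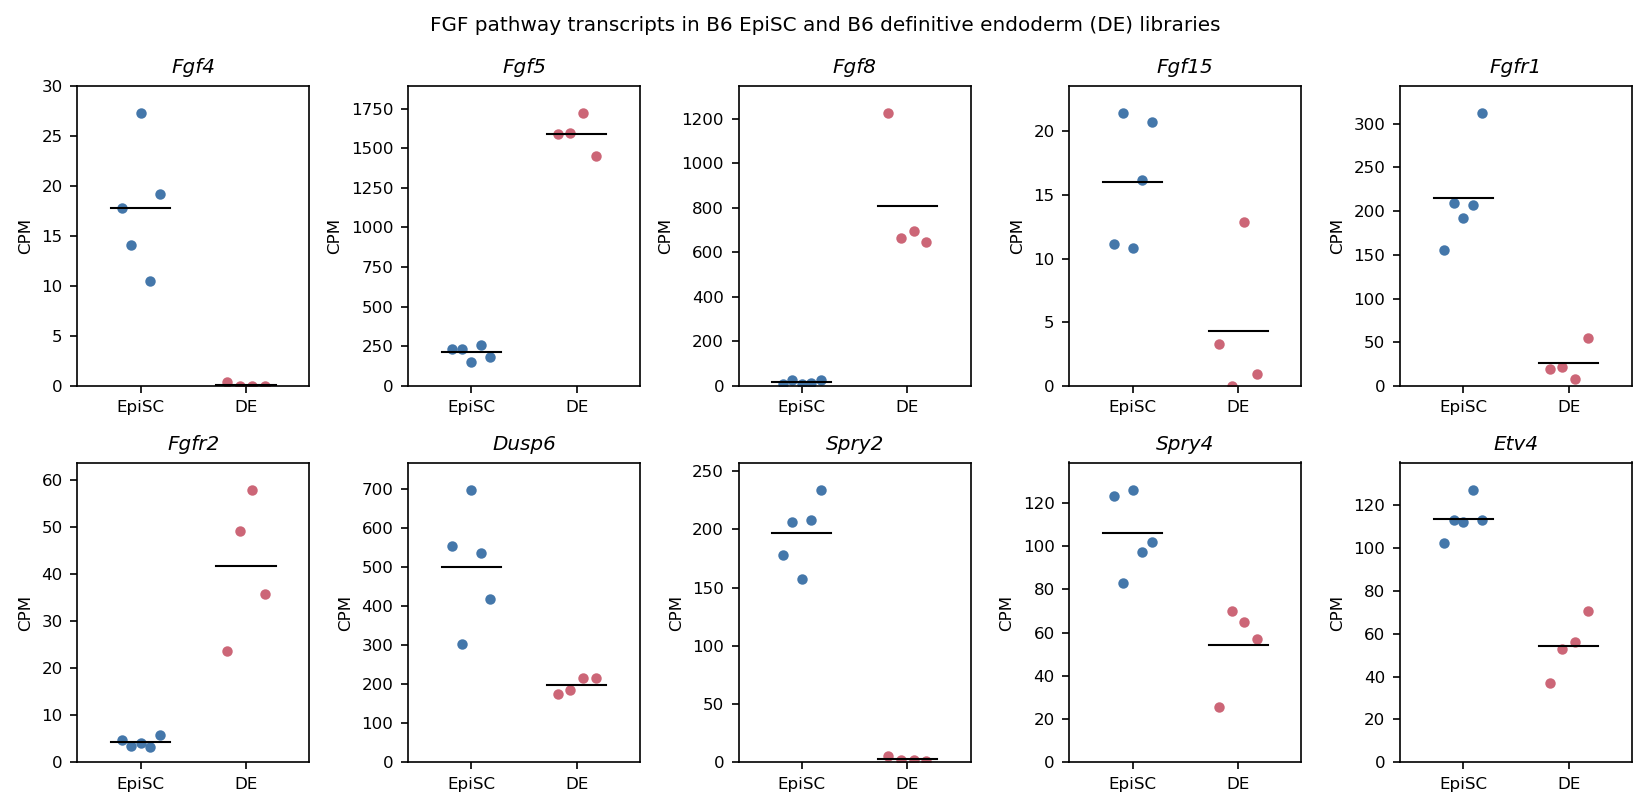
Transcript levels of the 10 genes in each B6 library, in CPM on a linear axis that starts at 0 and has its own range per gene. Each point is 1 library (5 EpiSC, 4 DE), and the bar is the group mean. Fgf5, Fgf8 and Fgfr2 lie higher in every DE library than in any EpiSC library, and Fgf15 is the 1 gene whose groups overlap.

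Fgf8 (ENSMUSG00000025219, chr19:45736491-45742941 in GRCm38.p6) encodes a ligand of the primitive streak and of nascent mesoderm and endoderm. It had 8.76, 26.6, 8.19, 13.8 and 26.3 CPM in EpiSC replicates 1, 2, 4, 44 and 51, and 1225, 666, 694.8 and 646 CPM in DE replicates 2, 4, 44 and 51. Every DE library was far above every EpiSC library, and DE replicate 2 stood above the other DE libraries. The log2 change was 5.59 (SE 0.45, 48.3-fold, edgeR adjusted p 4.28e-06 with Benjamini-Hochberg adjustment), and 5.33 without DE replicate 2. This was the largest rise of the 10 genes.

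Fgf5 (ENSMUSG00000029337, chr5:98254184-98277033, plus strand) is the ligand commonly used to mark the epiblast after implantation. Its levels in EpiSC replicates 1, 2, 4, 44 and 51 were 234, 234, 149, 256 and 183 CPM. In DE replicates 2, 4, 44 and 51 they were 1592, 1597, 1720 and 1448 CPM. The DE libraries lay close together and above all EpiSC libraries, so this marker of EpiSCs was higher after the change of state. The group means were 1589 ± 111 (SD, n = 4) and 211 ± 43.9 (SD, n = 5), and the log2 change was 2.91 (SE 0.17, edgeR adjusted p 9.66e-07 with Benjamini-Hochberg adjustment). Among the 10 markers of EpiSCs checked, 8 were lower and 2 higher in DE, the 2 being Fgf5 and Otx2.

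Fgf4 (ENSMUSG00000050917, chr7:144861386-144865245, plus strand) is an autocrine ligand of pluripotent cells and a known target of OCT4 and SOX2. It had 17.8, 14.1, 27.3, 10.5 and 19.2 CPM in the 5 EpiSC libraries in the order above. In DE it had 0.407 CPM in replicate 2, which is 8 counts, and 0 counts in replicates 4, 44 and 51. The groups did not overlap, and the fitted log2 change was -8.09 (SE 1.15, edgeR adjusted p 1.64e-04 with Benjamini-Hochberg adjustment). With so many zeros the fitted size depends on the prior count. Without DE replicate 2, Fgf4 was at least 251-fold lower in DE, taking a floor of 3 counts per library. The higher Pou5f1 and feeder values of DE replicate 2 stand above, and their part in its Fgf4 count was not tested.

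Fgf15 (ENSMUSG00000031073, chr7:144896532-144900953) lies downstream of Fgf4 on the same chromosome and encodes a ligand of the endocrine FGF group, whose part in gut and liver comes later in life. Its EpiSC levels were 11.1, 21.4, 10.8, 16.2 and 20.7 CPM. The DE libraries ranged from 0.0166 CPM in replicate 4 over 0.94 in replicate 51 and 3.31 in replicate 2 to 12.9 in replicate 44. Replicate 44 lay among the EpiSC libraries, and the other 3 lay below all of them. The log2 change of -1.92 (SE 1.05) was not called (edgeR adjusted p 0.135, Benjamini-Hochberg adjustment). Without DE replicate 44 it was -3.59 with a call (edgeR adjusted p 0.0157). Fgf15 was also called lower in the fit with the shared replicate number as a block. The annotation places Gm26793 over Fgf15, and since the strand used in counting is not stated, reads of the pair cannot be told apart.

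Fgfr1 (ENSMUSG00000031565, chr8:25518759-25575718), the main FGF receptor of the epiblast and mesoderm, had 156, 209, 192, 207 and 312 CPM in the EpiSC libraries. In DE replicates 2, 4, 44 and 51 it had 19.4, 22.0, 7.71 and 55.2 CPM. The groups were far apart, with a log2 change of -3.04 (SE 0.50, 8.23-fold lower, edgeR adjusted p 4.05e-04 with Benjamini-Hochberg adjustment). DE replicate 51 was the highest of DE, and in that library the genes of chromosome 8, where Fgfr1 lies, were shifted by a median of 0.51 on the log2 scale relative to the mean of the other DE libraries, against -0.17 to -0.12 in each of the others. Without it the log2 change was -3.72. Feeder markers moved with this fall. EpiSC replicate 1 had the lowest feeder sum of the EpiSCs, 81.9 CPM, and the lowest Fgfr1, 156 CPM, while replicate 51 had the highest of both, 3074 and 312 CPM. The feeder sum of EpiSC replicate 1 lay within the range of DE, 79.8 to 291 CPM, while its Fgfr1 lay above all DE libraries. The part of feeder cells in the fall was not tested. Gm31288 and Gm16159 overlap the gene, with the same limit as for Fgf15.

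Fgfr2 (ENSMUSG00000030849, chr7:130162451-130266808, minus strand) encodes the receptor typical of epithelia, including later endoderm. It had 4.70, 3.47, 4.04, 3.24 and 5.80 CPM in EpiSCs and 23.8, 49.3, 58.0 and 35.8 CPM in DE replicates 2, 4, 44 and 51. All DE libraries lay at least 4 times above the highest EpiSC library. The log2 change was 3.29 (SE 0.29, 9.81-fold, edgeR adjusted p 7.92e-06 with Benjamini-Hochberg adjustment). The 2 other signalling receptors of the family were scarce, since Fgfr3 had 0 counts in every DE library and 0.693 CPM ± 0.781 (SD, n = 5) in EpiSCs, and Fgfr4 had 0.498 and 0.551 CPM on average and was not called.

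Spry2 (ENSMUSG00000022114, chr14:105891947-105896819, minus strand), an inhibitor of signalling from receptor tyrosine kinases to RAS, showed the largest fall among the induced genes. It had 178, 206, 157, 208 and 234 CPM in EpiSCs and 5.14, 2.14, 2.07 and 1.55 CPM in DE. DE replicate 2 again stood above the other DE libraries, yet below all EpiSC libraries by a wide margin. The log2 change was -6.21 (SE 0.39, 74-fold lower, edgeR adjusted p 1.25e-06 with Benjamini-Hochberg adjustment), and -6.68 without DE replicate 2.

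The other Sprouty member, Spry4 (ENSMUSG00000024427, chr18:38586247-38601347), fell far less. It had 123, 83.0, 126, 97.1 and 102 CPM in EpiSCs and 25.5, 70.2, 64.8 and 57.0 CPM in DE, with no overlap. Its log2 change was -0.96 (SE 0.27, edgeR adjusted p 0.0100 with Benjamini-Hochberg adjustment). The lowest DE library was replicate 2, the one that was highest in Spry2, and without it the log2 change was -0.72.

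Dusp6 (ENSMUSG00000019960, chr10:99263231-99267489, plus strand), the cytoplasmic phosphatase of ERK, had 553, 304, 697.55, 535 and 418 CPM in EpiSCs. In DE it had 176, 185, 217 and 216 CPM. All DE libraries lay below EpiSC replicate 2, the lowest of EpiSCs, and the EpiSC libraries differed from each other more than the DE libraries did. The log2 change was -1.34 (SE 0.22, edgeR adjusted p 4.78e-04 with Benjamini-Hochberg adjustment). Gm34921 overlaps Dusp6.

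Etv4 (ENSMUSG00000017724, chr11:101769747-101785310), an ETS transcription factor that ERK signalling induces, had 102, 113, 112, 127 and 113 CPM in EpiSCs and 37.1, 52.7, 55.9 and 70.6 CPM in DE. The groups did not overlap, and the log2 change was -1.07 (SE 0.18, edgeR adjusted p 4.60e-04 with Benjamini-Hochberg adjustment). Dusp6, Spry4 and Etv4 thus fell by 0.96 to 1.34 on the log2 scale, and Spry2 by 6.21.

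The rest of the pathway was described over 4 further lists. Of 18 other ligand genes, 10 were tested, 2 were higher and 4 lower in DE (median log2 change -0.83). Fgf10, a ligand of mesenchyme that binds an epithelial form of Fgfr2, rose from 3.39 to 68 CPM (log2 change 4.33, SE 0.69, edgeR adjusted p 3.42e-04 with Benjamini-Hochberg adjustment). Fgf13, an intracellular homologue that is not secreted, fell (log2 change -2.32, SE 0.51, edgeR adjusted p 0.0027). Fgf2, the ligand added to the EpiSC medium, had 0 counts in every DE library and 0.0769 CPM on average in EpiSCs, so it was not tested.

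Of 16 other receptors, co-receptors and binding proteins, 12 were tested, 5 were higher and 3 lower (median log2 change -0.26). Both glypicans of the list rose. Gpc4, a heparan sulfate proteoglycan of the cell surface, rose from 87.8 to 1511 CPM (log2 change 4.11, SE 0.21, edgeR adjusted p 4.40e-07 with Benjamini-Hochberg adjustment), and Gpc3 by 2.46. Fgfbp1, which releases FGFs from the matrix, rose by 3.86 and Flrt3, a membrane protein that binds FGF receptors, by 3.58. The 3 that fell were the syndecans Sdc4 (-1.27), Sdc3 (-1.12) and Sdc1 (-0.86), which also carry heparan sulfate. Sdc3 lost its call when 1 library was left out, except for EpiSC replicate 1 or 4, and without EpiSC replicate 51 its log2 change was -0.70.

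All 22 genes of the cascade from FRS2 to ERK were tested, and 9 were higher and 9 lower (median log2 change -0.08). The kinase genes Map2k2 (1.97) and Araf (1.09) and the GTPase gene Hras (0.88) were among those that rose, with the adaptor Gab1 (1.13). Among those that fell were Nf1 (-3.46), whose product switches RAS off, the kinase gene Braf (-2.11), the receptor adaptor Frs2 (-1.73) and the RAS activator Sos2 (-1.44). Gab1 lost its call without EpiSC replicate 2, 44 or 51, without DE replicate 4, 44 or 51, and when scaled by total library size.

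Of 25 other feedback and target genes, Spry3 is not among the identifiers, the other 24 were tested, and 13 were lower and 4 higher (median log2 change -1.01). Etv1, an ETS factor of the same group as Etv4, fell from 82.3 to 4.82 CPM (log2 change -4.08, SE 0.35, edgeR adjusted p 6.66e-06 with Benjamini-Hochberg adjustment). Il17rd, the FGF antagonist also called Sef, fell by 2.95, the RAS-ERK inhibitor Spred3 by 2.94 and Ccnd1, a cyclin of the G1 phase, by 2.72 on the log2 scale. Spry1, another Sprouty gene, went the other way, from 24.7 to 101 CPM (log2 change 2.03, SE 0.26, edgeR adjusted p 9.11e-05), so the Sprouty genes did not move together. The other 3 that rose were Ier2 (1.87), Dusp1 (1.58) and Dusp7 (0.82), of which the last 2 are phosphatases of MAP kinases.

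**Figure D2:**
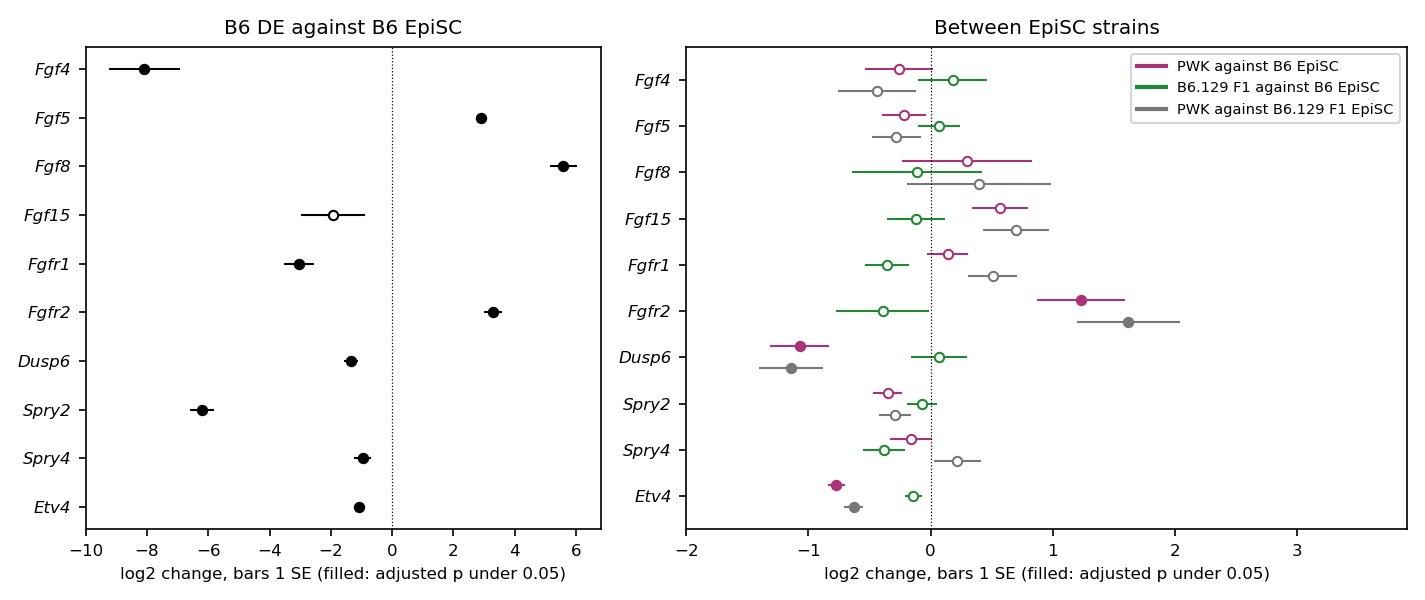
Fitted log2 change of each gene (point) with 1 SE (bar), for B6 DE against B6 EpiSC (left) and for the comparisons of EpiSC strains (right). Filled points have an adjusted p under 0.05. On the left 9 points are filled, from Fgf4 at -8.09 to Fgf8 at 5.59, and on the right the filled points belong to Fgfr2, Dusp6 and Etv4.

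Across the 9 B6 RNA libraries, the genes whose log2 CPM was most like that of a member were found by Pearson correlation among 9283 or 9284 genes with a mean log2 CPM of at least 3. For Fgf8 they were Gps1 (r 0.998) and Dnajb11 (0.997), for Fgf5 Sgk1 and Vps37c (both 0.995), for Fgf4 Chmp4b and Fam98b (both 0.995), and for Fgfr2 Tmem41b and Wdr1 (both 0.994). For Fgfr1 they were Xndc1 (0.995) and Ccnd1 (0.993), for Spry2 Tnrc6a and Rps12 (both 0.997), and for Etv4 Pomt1 (0.994) and Bub1 (0.990). The values were lower for Spry4 with Avl9 (0.988) and Asap1 (0.987), for Dusp6 with Itpkb (0.982) and B3gnt5 (0.978) and for Fgf15 with Gramd1b (0.943) and Brd1 (0.937). The libraries fall into 2 groups that set most of such a correlation: 767 genes exceeded an r of 0.95 with Fgf8, 17 did with Dusp6 and 0 with Fgf15.

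The second comparison asked whether chromatin near the same genes opened or closed between B6 EpiSCs and DE. The Fgfr2 locus opened broadly, with 12 of its 15 tested peaks higher in DE, and the Fgf8 locus had 5 of 11 higher. The Fgf15 locus closed at 5 of 6 peaks. The strongest start-site peak (for Etv4, near either gene end) was not called at Fgf4, Dusp6 and Etv4, whose transcripts fell. Among the other genes with a fallen transcript, that peak was lower at Spry2, higher at Spry4 and not called at Fgfr1. Of the 73 peaks near the 10 genes, 67 were tested, 25 were higher, 18 lower and 24 not called by edgeR, with Benjamini-Hochberg adjustment over 113870 peaks. Over all peaks 57.6% were called, 32.6% higher and 25.0% lower.

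The median log2 change was -0.15 over the tested peaks near these genes and -0.01 over all peaks. Scaled by total library size instead, the median over all peaks was -0.22, and 25 near peaks were higher and 27 lower, so the balance between directions depended on the scaling. Of 23 tested peaks within 2 kb of a start site (of either gene end where the annotation used gives no strand), 5 were higher, 5 lower and 13 not called. Of the 44 others, 20 were higher, 13 lower and 11 not called.

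**Figure D3:**
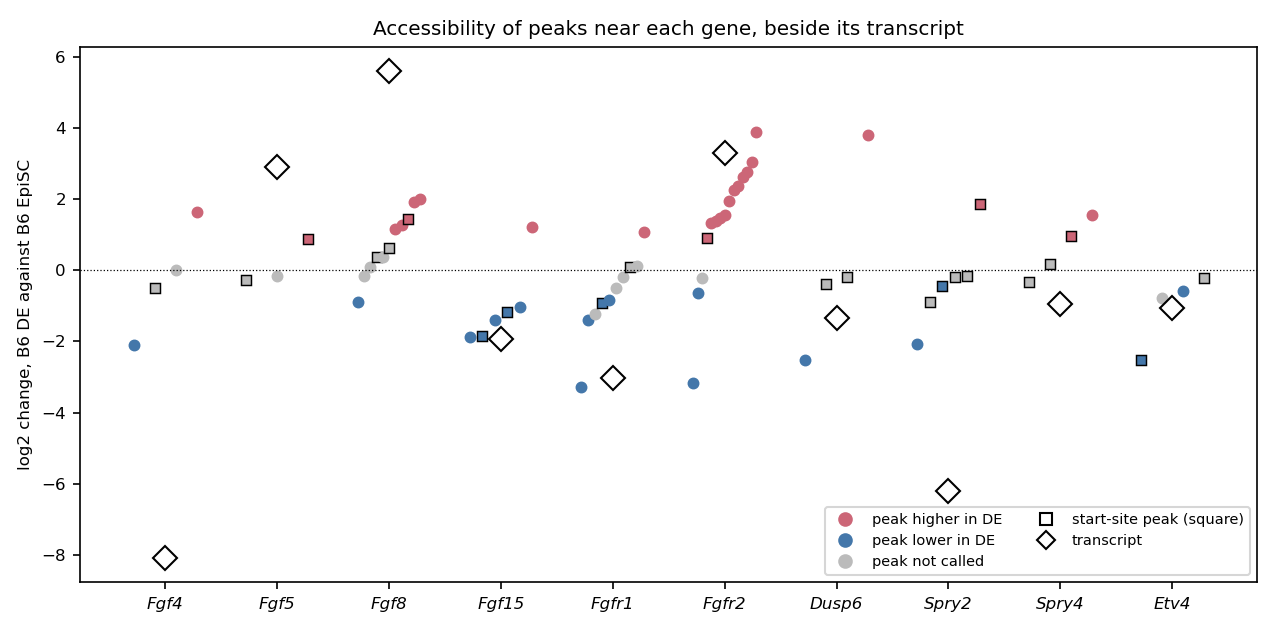
Log2 change of every tested peak near each gene (small symbols, sorted within a gene) beside the log2 change of its transcript (diamond), B6 DE against B6 EpiSC. Squares are start-site peaks, and colour gives the call. For Fgf8, Fgf15, Fgfr1, Spry4 and Etv4, which have no strand in the annotation used, squares are peaks within 2 kb of either gene end. Of the 15 tested Fgfr2 peaks 12 are higher, and the diamonds of Fgf4 and Spry2 lie far below all peaks of their genes.

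At Fgfr2 the 12 higher peaks ran from the start site to beyond the far end of the gene. The most significant lay in the gene at chr7:130176836-130177259, its centre 89761 bases downstream of the start site. It had 27.0, 35.5, 32.1 and 32.9 CPM in DE replicates 2, 4, 44 and 51 and 2.24, 3.91, 4.08 and 5.27 CPM in EpiSC replicates 1, 4, 44 and 51. The groups were far apart (log2 change 3.04, SE 0.24, edgeR adjusted p 2.71e-09 with Benjamini-Hochberg adjustment). The largest log2 change, 3.89 (SE 0.42), was that of chr7:130211670-130212007, a peak named here after its values were seen. The start-site peak chr7:130266248-130266514 rose less, from 9.12, 9.52, 7.91 and 8.21 CPM in EpiSCs to 17.9, 17.3, 16.0 and 13.8 in DE (log2 change 0.90, SE 0.21, edgeR adjusted p 0.00113). Of the 2 lower peaks, chr7:130215861-130216027 had the smaller adjusted p (log2 change -3.16, SE 0.56, edgeR adjusted p 5.38e-05), with 0.286 to 1.15 CPM in DE and 2.63 to 9.44 in EpiSCs. Closing and opening peaks thus lay a few kilobases apart inside 1 gene.

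**Figure D4:**
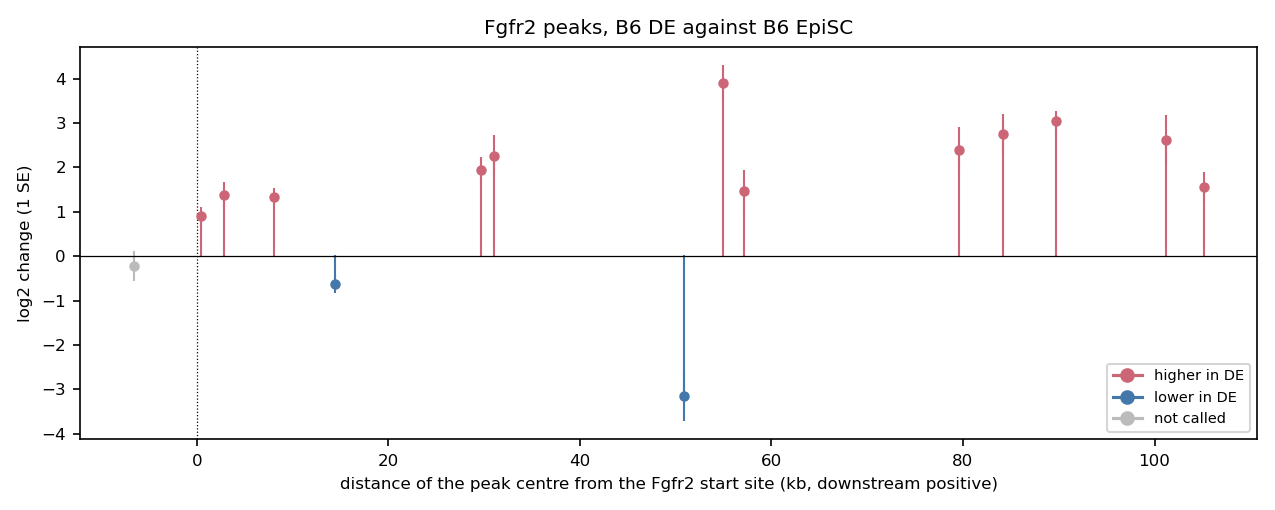
The 15 tested peaks of the Fgfr2 locus by the distance of their centre from the start site (kb, downstream positive), with the log2 change of B6 DE against B6 EpiSC and 1 SE. Peaks higher in DE are spread over the whole gene, with the highest values, 3.89 and 3.04, at 54970 and 89761 bases downstream.

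At Fgf8 the most significant higher peak, chr19:45747336-45747639, lay 4395 bases beyond the gene end with the larger coordinate and within 2 kb of Npm3. It had 18.9, 30.1, 21.5 and 23.1 CPM in DE against 4.48, 6.21, 8.67 and 4.65 in EpiSCs (log2 change 1.99, SE 0.25, edgeR adjusted p 8.88e-07 with Benjamini-Hochberg adjustment). The strongest peak of the locus, chr19:45733333-45734103 on the other side of the gene, was outside the rule for named peaks and is given after its values were seen. It rose from 25.9, 34.5, 40.3 and 53.8 to 74.3, 101, 88.0 and 82.4 CPM (log2 change 1.17, SE 0.17). Of the 3 peaks within 2 kb of a gene end, the strongest (chr19:45735306-45735430) was not called, with a log2 change of 0.38 (edgeR adjusted p 0.312), and 1 of the other two rose (chr19:45743179-45743375, log2 change 1.43). The 1 lower peak, chr19:45746381-45746596, changed by -0.88 (SE 0.29, edgeR adjusted p 0.0131) and had overlapping groups.

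Fgf5 had 3 peaks. The one over its start site, chr5:98254012-98254444, which holds the Fgf5 stretch printed above, had 26.8, 25.8, 24.3 and 24.8 CPM in DE and 14.1, 16.4, 12.2 and 12.4 CPM in EpiSCs. All DE libraries lay above all EpiSC libraries (log2 change 0.87, SE 0.18, edgeR adjusted p 2.67e-04 with Benjamini-Hochberg adjustment). The stronger peak chr5:98255751-98256275, further into the gene, was not called at -0.28 (SE 0.14, edgeR adjusted p 0.0976), but was called lower in 8 of its alternatives, with total library size at -0.49. The 2 peaks of this start region thus did not move together.

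Fgf4 had 4 peaks. Its start-site peak, chr7:144861022-144861251, which holds both GC boxes printed above, had 6.38, 8.39, 6.87 and 4.32 CPM in DE and 9.12, 8.01, 8.16 and 11.9 in EpiSCs. The groups overlapped, and the log2 change of -0.50 (SE 0.27) was not called (edgeR adjusted p 0.128 with Benjamini-Hochberg adjustment), although it was called without DE replicate 4 (-0.73) and with total library size (-0.72). Of the upstream peaks, chr7:144851445-144851677 rose from 2.24, 2.30, 3.57 and 2.17 to 7.41, 8.72, 9.30 and 5.77 CPM (log2 change 1.65, SE 0.33, edgeR adjusted p 2.11e-04). The peak chr7:144857230-144857343 fell, with overlapping groups (log2 change -2.11, SE 0.58, edgeR adjusted p 0.00368), and its log2 change was -2.78 without DE replicate 4.

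Fgf15 had 6 tested peaks, of which 5 were lower. The most significant, chr7:144888671-144889168, lay 7364 bases from the gene and fell from 21.6, 22.5, 24.7 and 24.0 to 8.85, 6.75, 5.72 and 3.75 CPM (log2 change -1.87, SE 0.23, edgeR adjusted p 1.10e-06 with Benjamini-Hochberg adjustment). The peak near its end with the smaller coordinate, chr7:144895980-144896189, changed by -1.18 (SE 0.25, edgeR adjusted p 4.02e-04). The peak inside the gene, chr7:144898606-144898860, rose by 1.21 (SE 0.25, edgeR adjusted p 3.23e-04). In all 3 no library of 1 group reached into the other. The log2 change of the Fgf15 transcript, -1.92 (SE 1.05), was negative like those of the 5 lower peaks. It was not called, which does not show that the transcript was unchanged.

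At Fgfr1, 4 of 10 tested peaks were lower and 1 higher. The most significant lower peak, chr8:25543437-25543795 in the gene, had 10.5, 13.3, 9.45 and 19.0 CPM in DE and 31.8, 27.8, 40.0 and 35.9 in EpiSCs (log2 change -1.39, SE 0.21, edgeR adjusted p 8.58e-06 with Benjamini-Hochberg adjustment). The peak at the end with the smaller coordinate, chr8:25518599-25518829, was not called (0.10, SE 0.22). It had 19.6, 18.9, 17.2 and 36.9 CPM in DE and 18.6, 20.2, 20.9 and 24.9 in EpiSCs, so that DE replicate 51 stood alone. In that library the peaks of chromosome 8 were shifted by a median of 0.46, and without it the log2 change was -0.22. The higher peak, chr8:25515196-25515459, changed by 1.08 (SE 0.25, edgeR adjusted p 8.91e-04).

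Among the induced genes, Spry2 had 6 tested peaks, 1 higher and 2 lower. The higher peak, chr14:105894867-105895109, lay in the gene and went from 6.24, 7.31, 4.34 and 8.21 CPM in EpiSCs to 22.2, 28.6, 26.3 and 19.3 in DE (log2 change 1.86, SE 0.23, edgeR adjusted p 7.85e-07 with Benjamini-Hochberg adjustment), while the transcript fell 74-fold. The strongest start-site peak, chr14:105897260-105897499, went from 41.7, 42.3, 37.7 and 54.8 to 35.4, 32.9, 28.8 and 34.9 CPM (log2 change -0.43, SE 0.15, edgeR adjusted p 0.0177). The other lower peak, chr14:105902981-105903071, changed by -2.07 (SE 0.51, edgeR adjusted p 0.00163). The small peak that holds the Spry2 stretch printed above, chr14:105897022-105897115, was not called at -0.88 (SE 0.38, edgeR adjusted p 0.0544).

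At Dusp6 the peak over the start site, chr10:99262974-99263366, which holds the Dusp6 stretch printed above, had 63.6, 76.4, 76.9 and 63.7 CPM in DE and 73.7, 69.4, 85.4 and 95.3 in EpiSCs. It was not called (log2 change -0.20, SE 0.13, edgeR adjusted p 0.176 with Benjamini-Hochberg adjustment), but was called lower in 5 of its alternatives, with total library size at -0.41. Beyond the end of the gene, chr10:99269278-99269627 fell from 25.6, 19.9, 21.9 and 15.5 to 5.15, 1.97, 2.58 and 5.48 CPM (log2 change -2.51, SE 0.30, edgeR adjusted p 5.80e-07). Further out, chr10:99275460-99275629 rose from 0 to 0.601 CPM in EpiSCs to 4.44 to 5.19 in DE (log2 change 3.79, SE 0.57, edgeR adjusted p 8.76e-06), and its fitted value was 4.49 without EpiSC replicate 4.

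Spry4 had 4 tested peaks, of which 2 were higher and 0 lower, while its transcript fell. The peak chr18:38576182-38576452 had 21.8, 29.5, 19.6 and 21.9 CPM in DE and 10.7, 9.42, 5.36 and 5.42 in EpiSCs (log2 change 1.56, SE 0.24, edgeR adjusted p 1.51e-05 with Benjamini-Hochberg adjustment). The strongest peak near a gene end, chr18:38602056-38602202, changed by 0.97 (SE 0.27, edgeR adjusted p 0.00467) and lies within 2 kb of Arhgap26 too. Etv4 had 4 tested peaks, of which 2 were lower and 0 higher. The strongest near a gene end, chr11:101785184-101785482, was not called at -0.23 (SE 0.17, edgeR adjusted p 0.252). The small peak chr11:101785959-101786031 fell from 2.72, 4.51, 2.30 and 3.56 to 0.412, 0.823, 0.286 and 0.865 CPM (log2 change -2.51, SE 0.53, edgeR adjusted p 4.04e-04).

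The third comparison asked how the FGF genes differ between EpiSCs of PWK and B6. Fgfr2 was higher in PWK, Dusp6 and Etv4 were lower, and the other 7 genes were not called. The share of members called, 1 higher and 2 lower of 10, stood beside 26.5% of the 14822 genes tested, 12.0% higher and 14.5% lower. The median log2 change was -0.19 over the members and -0.01 over all genes. Scaled by total library size instead, 2226 of all genes were higher and 1708 lower in PWK, against 1781 and 2142, and the 3 member calls were the same. The B6 EpiSC libraries are the same 5 that entered the comparison with DE, so the values of both comparisons are not independent. The submitters' processing notes name build mm10 alone. Whether PWK reads that differ from it were lost, in transcripts or in peaks, was not tested.

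**Figure D5:**
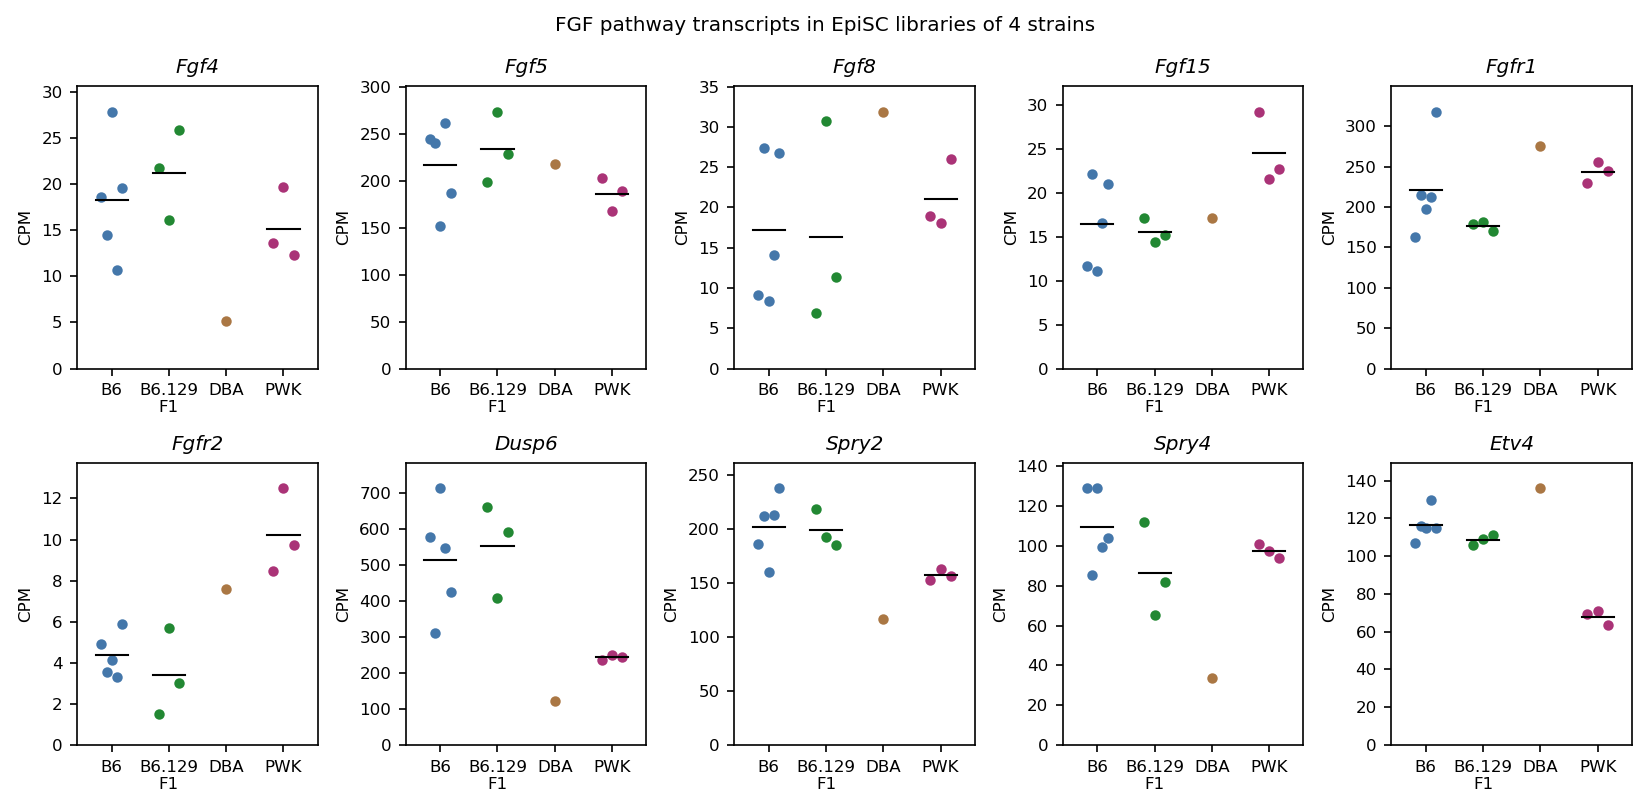
Transcript levels of the 10 genes in each EpiSC library of the 4 strains, in CPM on a linear axis that starts at 0 and has its own range per gene. Each point is 1 library (B6 5, B6.129 F1 3, DBA 1, PWK 3), and the bar is the group mean. All 3 PWK libraries lie above all B6 libraries for Fgfr2 and below them for Dusp6 and Etv4.

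For Etv4 the CPM, now scaled over the EpiSC libraries, were 107, 116, 115, 130 and 115 in B6 replicates 1, 2, 4, 44 and 51 and 69.3, 71.2 and 63.4 in PWK BioRep695, BioRep698 and the unmatched library. Both groups were tight and did not overlap (log2 change -0.77, SE 0.07, edgeR adjusted p 3.92e-05 with Benjamini-Hochberg adjustment). Dusp6 had 578, 312, 714, 548 and 425 CPM in B6 and 237, 249 and 245 in PWK. Here the B6 libraries were spread widely, yet the lowest lay above all of PWK (log2 change -1.07, SE 0.24, edgeR adjusted p 0.00754). Fgfr2 had 4.92, 3.57, 4.13, 3.32 and 5.91 CPM in B6 and 8.49, 12.5 and 9.72 in PWK. It did not overlap either (log2 change 1.23, SE 0.36, edgeR adjusted p 0.0281), but it lost its call without B6 replicate 2, 4 or 44 or any 1 of the PWK libraries, with edgeR adjusted p between 0.0516 and 0.111. The log2 change with 1 library left out stayed between 1.06 and 1.37. In these 3 genes the libraries of both strains were separate, as they were for 32.1% of all genes.

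The other induced genes, Spry2 (-0.35, SE 0.12, edgeR adjusted p 0.0517 with Benjamini-Hochberg adjustment) and Spry4 (-0.16, SE 0.17), were not called. Spry2 lay just past the threshold and was called by DESeq2 (adjusted p 0.0314) and by edgeR without B6 replicate 1 or 4. Among the ligands the log2 changes were 0.57 (SE 0.23, edgeR adjusted p 0.0942) for Fgf15, 0.30 (SE 0.53) for Fgf8, -0.22 (SE 0.18) for Fgf5 and -0.26 (SE 0.28) for Fgf4. Fgf15 was called without B6 replicate 2 (0.70) or 51 (0.68). Fgfr1 changed by 0.14 (SE 0.17), and by 0.32 with a call (edgeR adjusted p 0.0309) without B6 replicate 51, the B6 library with the highest Fgfr1 and the highest feeder sum. The feeder markers summed to 2550 to 3495 CPM in PWK and 85.7 to 3131 in B6, with 0 of 15 called. Markers of neuroectoderm summed to 335 to 341 CPM in PWK and 411 to 911 in B6, with 3 of 5 tested lower. Those of visceral endoderm summed to 26.3 to 34 and 12.3 to 19.8 CPM, with 2 of 4 tested higher. The 2 were Rhox5 and Dab2, and Dab2 made up most of the sum, with 25.2 CPM in PWK and 10.5 in B6 on average. Apob (-0.78, SE 0.72) and Cubn (0.58, SE 0.63) were not called. Ttr, Afp, Amn and Apoa4 had at most 0.0291 CPM on average in either strain and were not tested. The part of these markers in the results was not tested.

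Of the rest of the pathway, 1 of 10 other ligands was higher in PWK and 2 were lower. Fgf14, an intracellular homologue, rose from 2.51 to 14.2 CPM (log2 change 2.50, SE 0.16, edgeR adjusted p 1.94e-06 with Benjamini-Hochberg adjustment), Fgf13 of the same group fell by 1.36, and the endocrine ligand Fgf21 fell by 3.47 at levels of 0.152 and 1.77 CPM. The call of Fgf21 was lost without PWK BioRep698 or the unmatched library, and its log2 change was -2.67 without B6 replicate 4 and -4.15 without PWK BioRep695. Of 14 receptors and binding proteins, Flrt1 (1.71) and Sdc1 (0.41) rose and Fgfbp1 (-2.25) fell. Of 22 genes of the cascade, Sos1 (0.55), Nf1 (0.36) and Araf (0.22) rose, and Sos2 (-1.19) was among those that fell. Of 24 feedback and target genes, Spred3 (0.47) rose, and Epha2 (-0.80), Il17rd (-0.68) and Myc (-0.61) fell. The calls of Flrt1, Sdc1, Nf1, Araf, Spred3 and Il17rd were each lost in 3 to 6 of the alternatives, and for each of them the fits without PWK BioRep695 and without BioRep698 were among these. The 2 Sos genes, both activators of RAS, thus moved in opposite directions.

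B6.129 F1 EpiSCs were compared with the same B6 libraries. None of the 10 genes was called by edgeR (Benjamini-Hochberg adjustment) or by DESeq2, and 1 (Spry4) had an unadjusted p under 0.05 in edgeR and 2 in DESeq2. Among all genes 2.84% were called, 1.34% higher and 1.50% lower, which is 199 and 222 genes. That count varied widely: DESeq2 gave 876 and 1124, and edgeR gave 1001 and 951 without B6 replicate 1, 0 and 2 without F1 replicate 4, and 0 and 0 without the unmatched F1 library (2403 genes at an unadjusted p under 0.05). Without 1 of B6 replicates 2, 4, 44 and 51 or F1 replicate 9, it gave 41 to 356 higher and 50 to 401 lower. The largest log2 changes of members were -0.39 (SE 0.38) for Fgfr2, -0.38 (SE 0.17) for Spry4 and -0.36 (SE 0.18) for Fgfr1. The others ran from -0.14 for Etv4 to 0.18 for Fgf4, and the groups overlapped for all 10, while 15.3% of all genes did not overlap. The median was -0.12 over the members and -0.03 over all genes. Feeder markers summed to 171 to 267 CPM in F1 and 85.7 to 3131 in B6. Their median log2 change was -2.66, with 0 of 15 called. The part of feeder cells in the comparison of F1 with B6 was not tested.

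The F1 libraries 4, 9 and the unmatched one had 1.50, 5.70 and 3.03 CPM of Fgfr2, 663, 408 and 592 of Dusp6, and 106, 109 and 111 of Etv4. For Fgf8 they had 6.86, 30.8 and 11.4 CPM. Library 9 was thus the highest in Fgf8 and Fgfr2 and the lowest in Dusp6. Spry4, at 112, 65.4 and 81.9 CPM, was also lowest in library 9. Of the feedback and target genes, Fosl1 (-1.75, SE 0.35, edgeR adjusted p 0.0364 with Benjamini-Hochberg adjustment) was called lower in F1, and this call was lost in 6 alternatives.

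PWK and B6.129 F1 EpiSCs were compared in the same fit. As against B6, Fgfr2 was higher and Dusp6 and Etv4 lower in PWK, and the other 7 genes were not called. Their log2 changes were 1.62 (SE 0.42, edgeR adjusted p 0.0118 with Benjamini-Hochberg adjustment), -1.14 (SE 0.26, edgeR adjusted p 0.00642) and -0.63 (SE 0.08, edgeR adjusted p 2.77e-04). The PWK libraries are those of the comparison with B6, so this is not a second set of PWK samples. Over all genes 40.0% were called, 20.7% higher and 19.4% lower, and 62.9% did not overlap. Scaled by total library size instead, 62.3% of the calls over all genes were higher, against 51.7%. Among the members, 6 did not overlap: Fgf15, Fgfr1, Fgfr2, Dusp6, Spry2 and Etv4.

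Fgf15 (0.70, SE 0.27, edgeR adjusted p 0.0580 with Benjamini-Hochberg adjustment) and Fgfr1 (0.51, SE 0.20, edgeR adjusted p 0.0604) fell just short of a call. Both were called higher in PWK with total library size, with DESeq2, with at least 10 counts in every library and in a fit to these 2 groups alone. Spry2 (-0.29, SE 0.13) was called lower in the fit to these 2 groups alone. Feeder markers were all higher in PWK here (15 of 15), with sums of 171 to 267 CPM in F1. Markers of visceral endoderm (3 of 4 tested) and of streak and mesoderm (4 of 8) were partly higher and those of neuroectoderm partly lower (3 of 5) in PWK. The visceral endoderm genes that rose were Dab2 (2.03), Rhox5 (1.11) and Cubn (2.30), while Apob (-1.46) was not called. Ttr, Afp, Amn and Apoa4 had at most 0.108 CPM on average in either group and were not tested. The streak and mesoderm genes that rose were Foxf1 (3.41), Meox1 (2.49), Pdgfra (2.22) and Wnt3 (1.13). T (0.11) and Mixl1 (-1.37) were among those not called. The part of these markers in the results was not tested.

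Of the other pathway genes, 3 of 10 ligands were higher and 3 lower in PWK than in F1, 6 of 14 receptors and binding proteins were higher and 1 lower, 3 of 22 cascade genes were higher and 4 lower, and 4 of 24 feedback and target genes were higher and 4 lower. The largest changes were those of Flrt2 (4.14), a membrane protein related to Flrt3, Fgfr4 (3.35), Sdc3 (2.91) and Fgf1 (2.54) among those that rose, and of Fgf21 (-3.72), Fgfbp1 (-2.83) and Fgf13 (-1.78) among those that fell. Fgfr4 stayed scarce, at 1.42 and 0.141 CPM, and its log2 change was 2.43 without PWK BioRep698. That of Fgf1, at 1.14 and 0.198 CPM, was 3.27 without F1 replicate 4, and its call was lost without PWK BioRep695. Fgf21 lost its call without PWK BioRep698 or the unmatched library and had -4.43 without BioRep695. Fgf14 (2.36), Fgf18 (2.12), Flrt1 (1.73), Sdc2 (0.83), Sdc1 (0.68), Sos1 (0.49), Nf1 (0.37) and Grb2 (0.30) rose as well. Fosl1 (2.02), Epha4 (1.25), Spred3 (0.86) and Ccnd1 (0.67) were the higher feedback and target genes, and Ier3 (-1.42), Epha2 (-0.73), Egr1 (-0.60) and Myc (-0.44) the lower ones. Fgf17 (-1.52), Sos2 (-0.98), Braf (-0.44) and Map2k1 (-0.32) fell too. The log2 change of Fgf18 was 2.84 without F1 replicate 9. The calls of Fgf17, Fgf18, Flrt1, Nf1, Braf, Map2k1, Grb2, Egr1, Ccnd1 and Epha4 were each lost in at least 1 fit that left out 1 library.

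The DBA EpiSC library has no replicate and no test. It lay below every other EpiSC library in Dusp6 (122 CPM), Spry2 (117 CPM), Spry4 (33.6 CPM) and Fgf4 (5.15 CPM). The lowest values elsewhere were 237 for Dusp6, 153 for Spry2, 65.4 for Spry4 and 10.7 for Fgf4. It lay above every other EpiSC library in Etv4 (136 CPM against at most 130) and Fgf8 (31.9 CPM against at most 30.8). In Fgf5 (218 CPM), Fgf15 (17.1), Fgfr1 (276) and Fgfr2 (7.58) it lay within the range of the others. Of the 4 induced genes, 3 were thus lowest and 1 highest in this library, whose feeder sum was 1711 CPM. For how many of all genes this library was the lowest or highest was not counted. These positions therefore cannot be read as particular to the pathway.

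Chromatin near the 10 genes was compared between PWK (2 libraries) and B6 EpiSCs (4 libraries). Only 1 of 69 tested peaks was called and it was lower in PWK, beside 5.11% called, 1.42% higher and 3.68% lower, of 137667 peaks. None was called near Fgfr2, Dusp6 or Etv4, whose transcripts differed between these strains. The called peak, chr7:144888660-144889168 near Fgf15, had 12.9 and 13.8 CPM in PWK, 21.1, 23.6, 24.4 and 23.7 in B6 and 19.9 in DBA (log2 change -0.77, SE 0.21, edgeR adjusted p 0.0436 with Benjamini-Hochberg adjustment). Its call was lost in 10 of 11 alternatives, with edgeR or DESeq2 adjusted p between 0.0515 and 0.15. At an unadjusted p under 0.05 there were 8 near peaks in edgeR and 6 in DESeq2, and the median log2 change was -0.01 near the genes and 0.04 over all peaks.

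Next came the start-site peaks of the 3 genes with a transcript difference, taking the strongest of each, for Etv4 near either gene end. That of Fgfr2, chr7:130266243-130266497, had 6.73 and 5.21 CPM in PWK against 8.71, 9.90, 8.04 and 8.42 in B6 (log2 change -0.55, SE 0.31), so PWK lay lower while its Fgfr2 transcript was higher. That of Dusp6, chr10:99262973-99263366, had 92.3 and 76.8 against 71.7, 72.2, 84.2 and 94.1 CPM (log2 change 0.09, SE 0.16). That of Etv4, chr11:101785184-101785482, had 24.8 and 24.0 against 28.4, 26.6, 20.4 and 25.7 CPM (log2 change -0.04, SE 0.20). The groups overlapped for Dusp6 and Etv4 and did not for Fgfr2, and 25.9% of all peaks did not overlap. PWK has 2 libraries here, and a missed threshold does not show that the strains are alike at these peaks.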

How the data were processed

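Raw counts per Ensembl gene and per peak were deposited by the authors, with peaks common to all libraries of a table. Per the submitters' processing notes, the tools were Salmon, featureCounts and DESeq2 for RNA-seq and fastp, Bowtie2, MACS2, featureCounts and DESeq2 for ATAC-seq, on build mm10. Their roles, settings and versions, the strand used in counting, and whether peak starts count from 0 or 1 are not given in the sources used here. RNA libraries were stranded, paired-end and made from poly(A) RNA, per the labels' protocols.

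Of 30 samples, 27 were used. No column was matched to the 3 PWK DE samples, and 17 columns of no sample of the series are not used here. The 5 B6 EpiSC columns hold identical values in both RNA tables. Gene positions come from RefSeq, GRCm38.p6, and 29270 of the 29555 identifiers matched a symbol.

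Counts were tested with edgeR 4.0.16 in R 4.3.3 (TMM scaling, filterByExpr, robust quasi-likelihood fit, Benjamini-Hochberg adjustment over all features tested, threshold 0.05). The B6 fits used the groups compared, and the RNA strain fit used B6, PWK and B6.129 F1 EpiSCs. The scripts were tested on simulated counts. Alternatives were RLE or total library size, DESeq2 1.42.0, no filter on low counts, a minimum of 10 counts per library, each library left out, the replicate number as a block, only the 2 groups, and windows of 2 or 50 kb.

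The members and lists were chosen with earlier results of these data known. All members are named, and of the other lists up to 4 called genes per direction with the largest log2 change and a mean log2 CPM of at least 3, or, between strains, all called genes, except 1 item that is not reported here. Named peaks are the strongest start-site peak and the most significant called peak per direction and gene. Any other was chosen after its values were seen.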

Additional observations from a re-analysis of the deposited data

Results flagged for a closer look

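Among the libraries of a group of 4 to 10, single values that stood apart from the rest were looked for in 74 groups of member transcripts and named peaks, and 5 were found. Chance alone gives about 1 in 20 groups. In RNA, 3 of the 5 came from DE replicate 2: Fgf4 at 0.407 CPM with 0 in the other DE libraries, Fgf8 at 1225 CPM against 646, 666 and 694.8, and Spry2 at 5.14 CPM against 1.55 to 2.14. In ATAC, the Fgfr1 peak chr8:25518599-25518829 had 36.9 CPM in DE replicate 51 against 17.2 to 19.6 in the other DE libraries. The Fgf4 peak chr7:144851445-144851677 had 3.57 CPM in EpiSC replicate 44 against 2.17 to 2.3 in the other EpiSC libraries.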

How the results depend on the processing

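For B6 DE against EpiSC transcripts, 542 of 558 refits of single genes kept direction and side of the threshold, 14 lost and 2 gained a call, and 0 reversed. For PWK against B6 the counts were 303 of 348 kept, 39 lost and 6 gained, and for PWK against F1 386 of 451, 56 and 9. With 1 library left out, all genes called higher and lower in DE ran from 4030 to 4561 and 3827 to 4586 and members from 3 to 3 and 6 to 7. For PWK against B6 they ran from 1126 to 2428 and 1317 to 2476 (members 0 to 3 and 2 to 3), for F1 against B6 from 0 to 1001 and 0 to 951 (members 0), and for PWK against F1 from 2185 to 2590 and 2064 to 2519 (members 1 and 2). Near peaks called in DE ran from 24 to 26 and 18 to 24, and all peaks from 33748 to 40472 and 29747 to 36781. In PWK, near peaks ran from 0 to 1 in each direction and all peaks from 1001 to 2027 and 2628 to 5418. F1 against B6 gave 876 higher and 1124 lower genes with DESeq2, 146 lower without a filter, and 0 and 0 with only the 2 groups. PWK against F1 gave 3 members higher with total library size, DESeq2, at least 10 counts or only the 2 groups. At least 10 counts in every library left 9868 higher and 8144 lower peaks in DE, with 11 near peaks lower, and 667 and 1443 in PWK. Near peaks in DE were 6 higher and 6 lower within 2 kb and 57 and 35 within 50 kb. In PWK, 0 were lower with RLE, total library size, no filter, at least 10 counts or 2 kb, and 2 within 50 kb. Signs of uncalled values turned as follows: in F1 against B6, Fgf5 to between -0.07 and 0.18 with 1 library left out, Fgf8 -0.97 to 0.26, Fgf15 -0.24 to 0.00, Dusp6 -0.08 to 0.24 and Spry2 -0.14 to 0.01; in DE, the Fgfr1 start peak to -0.10 with total library size and to between -0.22 and 0.19 with 1 library left out; in PWK, the start peaks of Fgfr1 -0.06 to 0.15, Dusp6 -0.06 to 0.19, Spry2 -0.03 to 0.20 and Etv4 -0.08 to 0.02, and 0.04 for Etv4 with total library size. The cause of these changes was not tested. Replicate numbers shared by EpiSC and DE did not meet the condition for pairing, which used a threshold of 0.1 on r. For the same number r ran from 0.088 to 0.237 in RNA, where each library correlated best with its own number. In ATAC r ran from -0.005 to 0.049. The fit with the replicate number as a block called 3792 genes higher and 3939 lower, members 3 and 7 with Fgf15 at -3.57 (edgeR adjusted p 0.0451), and near peaks 26 and 14, while the Fgf8 peak chr19:45746381-45746596 lost its call (-0.98). The same libraries without the block gave 4171 and 4026, members 3 and 6, and near peaks 26 and 17. Depth limits peaks of a few CPM.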
